A study of Mus musculus with 16 samples.

Results

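The genes described here are 9 transcription regulators known from the GABAergic lineage of the cerebellum: Ptf1a, Tfap2a, Tfap2b, Lhx1, Lhx5, Skor1, Pax2, Ebf2 and Ebf3. They were taken by name from the array's non-control probes, older names included, and all 9 genes had a probe. They are 9 of 28655 gene names on the array and 13 of its 41173 probes. Tfap2a and Tfap2b stand on the array as Tcfap2a and Tcfap2b, Skor1 as C230094B15Rik and the second Ebf3 probe as 3110018A08Rik (all RefSeq synonyms). All 13 probes passed the filter on low signal and were tested.

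Cells were sorted by fluorescence from GAD67-eGFP mice on a C57Bl/6 background at postnatal day 1, and every group, the cerebellum included, carries this reporter, which marks cells expressing the GABA-synthesising enzyme encoded by Gad1. The groups are whole brain (4 arrays, from 4 mice) and the dissected regions cerebellum, striatum, cortex and olfactory bulb (3 arrays for each region, from 6 mice); the labels call the arrays biological replicates and do not say whether regions share animals. On all 16 arrays the sorted cells' cDNA carried Cy5, and a common total brain reference, made from 4 age-matched mice and amplified alike, carried Cy3, so that a positive log2 ratio is a higher signal in the sorted cells. Dyes were not swapped, and the labels call the reference dye red as well, so the direction rests on the dye names.

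The cerebellum has GABAergic neurons of several kinds, among them Purkinje cells, interneurons of the cortex and small neurons of the deep nuclei, all of which descend from the cerebellar ventricular zone. Ptf1a, a basic helix-loop-helix factor, is required there for progenitors to take the GABAergic fate. Downstream, LIM homeodomain factors, AP-2 factors and Skor corepressors mark newly generated GABAergic neurons, Pax2 marks the precursors of inhibitory interneurons, and EBF factors are made in subsets of postmitotic neurons. Forebrain GABAergic neurons come instead from the ganglionic eminences under Dlx factors.

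Per array, sorted cells gave a median signal of 150.9 to 717.5 units (cerebellum replicate 2 the highest) and the reference one of 92 to 254. The scanner marked 78.1% to 96.6% of the sorted-cell spots and 72.1% to 90.7% of the reference spots as well above background. Log2 ratios over all probes correlated at Pearson's r of 0.934 to 0.992 within groups and 0.604 to 0.924 between groups. Whole-brain arrays were scanned on 1 day and all regional arrays on another, so for comparisons with whole brain the scan day and the group cannot be told apart. Gad1 itself lay above the reference on every regional array, from 0.58 to 1.26 (log2 ratio) in the cerebellum, but from -1.61 to -1.39 on the whole-brain arrays. Gad2 likewise lay above the reference on every regional array, from 0.68 to 1.17 in the cerebellum, but from -0.40 to -0.22 on the whole-brain arrays. Slc32a1, the vesicular GABA transporter, was above the reference in all 5 groups, at 1.31 to 1.79 on the cerebellum arrays. The cerebellum label was set against En2, a hindbrain patterning gene, which was higher there than in the forebrain regions by 1.28 ± 0.079 (log2, SE; adjusted p = 3.62e-10, limma), and against Dlx1, which fell by 2.91.

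The main comparison asked how the members differ between sorted cells of the cerebellum and those of the forebrain regions, taken as the mean of olfactory bulb, cortex and striatum. Of the 9 members, 8 rose in the cerebellum and none fell, and 6 of them rose at least 2-fold (limma, Benjamini-Hochberg adjusted p under 0.05 over 39226 probes, with the brighter probe standing for a gene with a pair of probes). Over all probes 21.3% were called higher, 0.64% called higher and at least 2-fold, and 19.2% called lower. Lhx5, Ebf3, Pax2, Skor1, Tfap2b and Tfap2a were the members past 2-fold, Lhx1 and Ebf2 rose by less, and Ptf1a did not pass the test. The median difference of the 9 genes was 2.43 on the log2 scale, against 0.023 over all probes tested. On 12 of the 13 probes every cerebellum array lay above every one of the 9 forebrain arrays, a separation seen on 11.4% of the probes that had a value on all of these arrays. In these bulk samples a larger share of cells expressing a gene and more RNA per cell cannot be told apart.

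**Figure D1:**
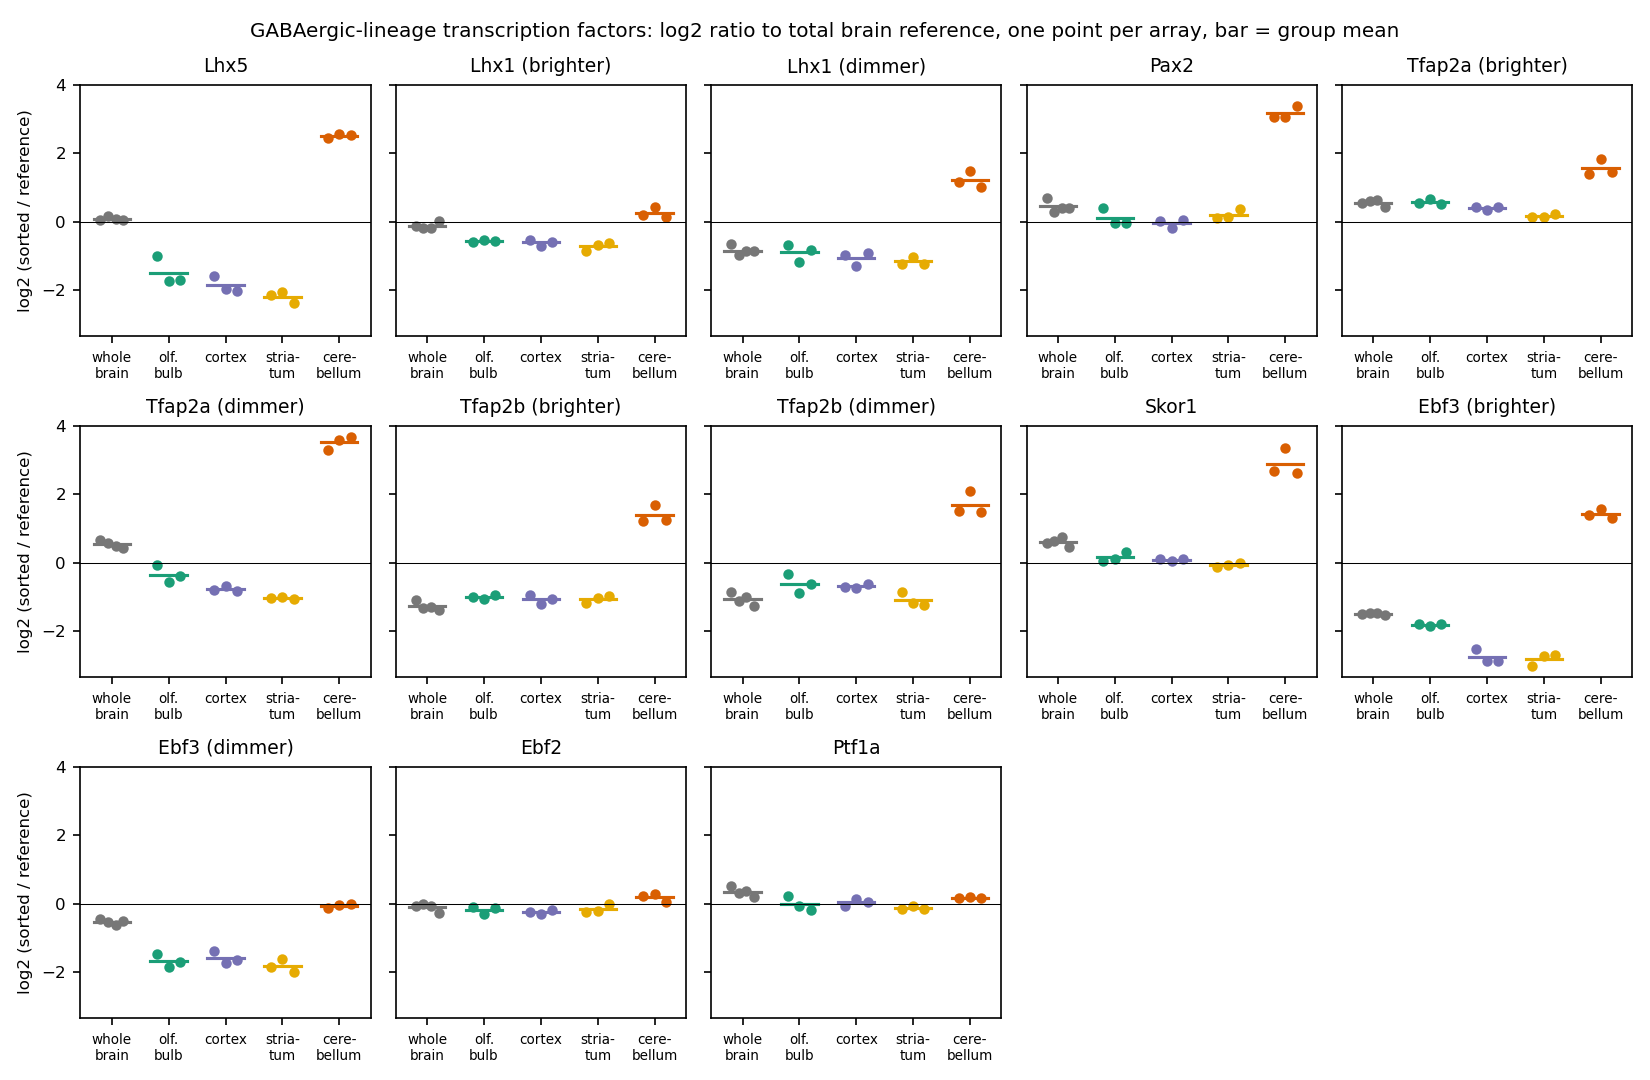
Log2 ratio of sorted cells to the total brain reference (vertical axis) for each of the 13 probes, one point per array and a bar at each group's mean. The 3 cerebellum arrays (orange) stand above the other groups on most panels, from 2.44 to 2.55 for Lhx5 where striatum lies at -2.38 to -2.05. For Ptf1a the cerebellum arrays overlap those of olfactory bulb and whole brain.

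Ordered by size over the whole array, the differences between cerebellum and forebrain put member probes at ranks 1, 2 and 3 of 39226: Lhx5, the dimmer Tfap2a probe and the brighter Ebf3 probe. Pax2 followed at rank 7, Skor1 at 11, the Tfap2b probes at 18 and 20 and the dimmer Lhx1 probe at 28. Ebf2 and Ptf1a, at ranks 4072 and 9483, lay within the bulk of the array. Taken channel by channel, Lhx5 differed by 4.46 in the sorted channel and by 0.10 in the reference channel, and over the 13 probes the reference channel differed by -0.21 to 0.21. The highest of these, 0.21 for Ebf2, stood beside a sorted-channel difference of only 0.58.

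**Figure D2:**
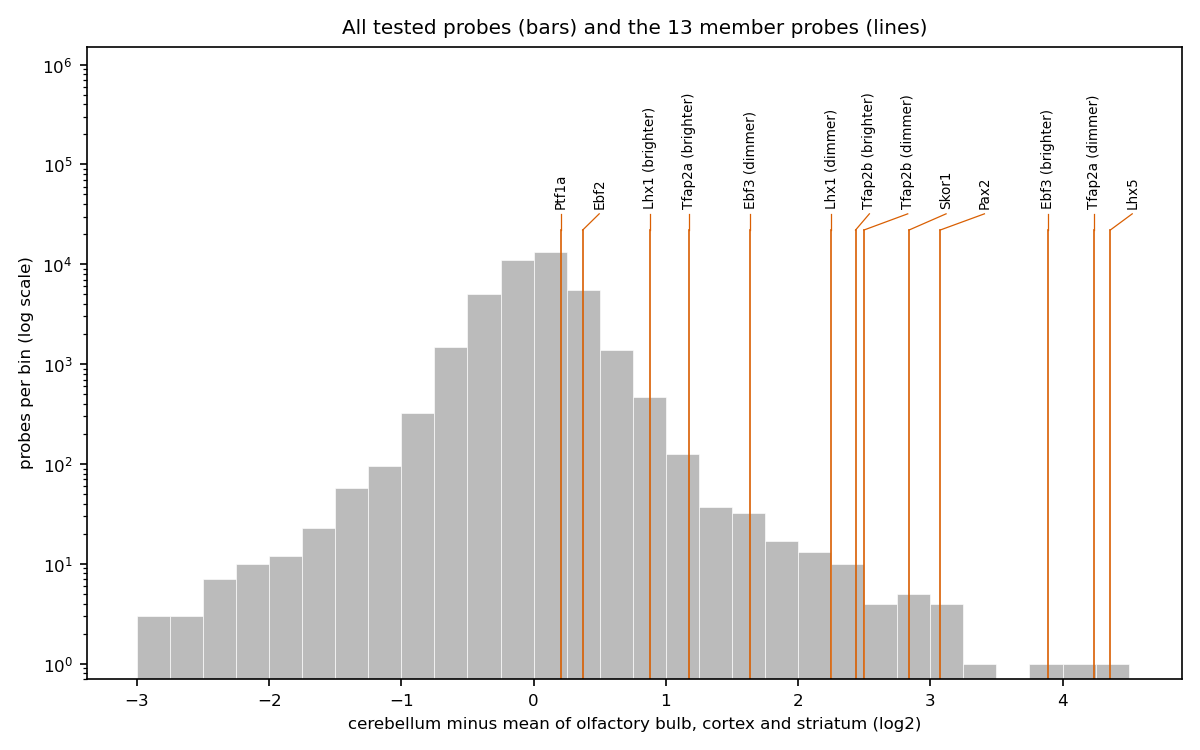
Bars count all 39226 tested probes (vertical axis, log scale) by their difference between cerebellum and the mean of the forebrain regions (horizontal axis, log2), and orange lines mark the 13 member probes. The lines reach from 0.21 for Ptf1a, inside the main body of the distribution, to 4.36 for Lhx5 at its upper end.

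Lhx5, a LIM homeodomain factor of postmitotic Purkinje cells and other early-born neurons, showed the widest contrast. Its log2 ratios were 2.44, 2.55 and 2.55 on the cerebellum arrays, and 0.05, 0.15, 0.09 and 0.05 on those of whole brain. They were -1.01, -1.74 and -1.72 in olfactory bulb, -1.58, -1.96 and -2.02 in cortex and -2.15, -2.05 and -2.38 in striatum. The cerebellum arrays were thus the only ones clearly above the reference, whole brain was level with it, and every forebrain array was below it. Cerebellum exceeded the forebrain mean by 4.36 ± 0.12 (SE, 3 against 9 arrays), or 20.6-fold (adjusted p = 6.08e-15). In raw signal the sorted cells gave 2376 to 5542 units in the cerebellum and 67.8 to 121 in the forebrain, where the spot was well above background on 6 of 9 arrays, 1 of 3 in cortex. Under the scanner's own log ratio, which adds no offset, the Lhx5 difference was 6.64.

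Lhx1, the paralogue that acts with Lhx5 in Purkinje cell differentiation, rose on both of its probes but to unequal degrees. The brighter probe gave 0.18, 0.43 and 0.14 in the cerebellum, -0.58, -0.52 and -0.55 in olfactory bulb, -0.53, -0.70 and -0.60 in cortex, -0.85, -0.67 and -0.63 in striatum and -0.13, -0.18, -0.17 and 0.02 in whole brain. The cerebellum stood apart from every other array there, though close to whole brain. Its difference from the forebrain was 0.88 ± 0.079 (SE), or 1.84-fold (adjusted p = 7.05e-08). On the dimmer probe the cerebellum arrays read 1.16, 1.47 and 1.00 against a forebrain range of -1.30 to -0.69, a difference of 2.25 ± 0.11 or 4.75-fold (adjusted p = 2.06e-11). Averaging both probes gave 1.56 for the gene, so the choice of probe sets whether Lhx1 passes 2-fold. Which transcripts each probe reads was not tested. Lhx1os, a noncoding RNA gene that adjoins Lhx1 without overlap in the RefSeq annotation (GRCm38.p6), was also higher in the cerebellum, at rank 26 with a difference of 2.29, and was picked out after its value was seen.

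Tfap2a, an AP-2 factor present in cerebellar GABAergic precursors, gave the highest cerebellar ratio of the set. Its dimmer probe read 3.30, 3.59 and 3.68 in the cerebellum, 0.67, 0.57, 0.50 and 0.43 in whole brain, -0.08, -0.57 and -0.40 in olfactory bulb, -0.81, -0.67 and -0.84 in cortex, with a striatum mean of -1.03 ± 0.026 (SD, n = 3). No regions overlapped on this probe, with the order cerebellum, olfactory bulb, cortex, striatum. The difference between cerebellum and forebrain was 4.24 ± 0.096 (SE), 18.9-fold (adjusted p = 2.31e-16). The brighter probe showed the same region on top with far less range, at 1.40, 1.83 and 1.45 in the cerebellum against 0.13 to 0.68 over the forebrain arrays, and differed by 1.18 ± 0.084 or 2.26-fold (adjusted p = 2.89e-09). It gave 1012 to 3437 units in the forebrain, where the dimmer probe gave 73.6 to 138, and the mean of both probes differed by 2.71.

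Tfap2b, the AP-2 paralogue found with Tfap2a in the same precursors, behaved alike on both probes. The brighter one read 1.22, 1.68 and 1.26 in the cerebellum, -1.01, -1.07 and -0.94 in olfactory bulb, -0.96, -1.20 and -1.07 in cortex, -1.19, -1.02 and -0.97 in striatum and -1.10, -1.32, -1.31 and -1.39 in whole brain. All groups but the cerebellum lay below the reference, and the 3 forebrain regions overlapped one another. Cerebellum was higher than forebrain by 2.43 ± 0.094 (SE), 5.41-fold (adjusted p = 3.58e-13), and on the dimmer probe by 2.50 ± 0.13, 5.65-fold (adjusted p = 2.44e-11). The dimmer probe was not well above background on any cortex array. In the sorted channel alone, open to dye bias, its cerebellum signal was at least 6.44-fold that of cortex, with mean log2 signals of 8.88 and 6.19. On the ratio scale, which the test used, the difference from cortex was 2.39 (95% interval 2.06 to 2.72; adjusted p = 1.65e-09), and the sorted-channel figure is no bound on it. The scanner's log ratio gave 4.60 for that probe.

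**Figure D3:**
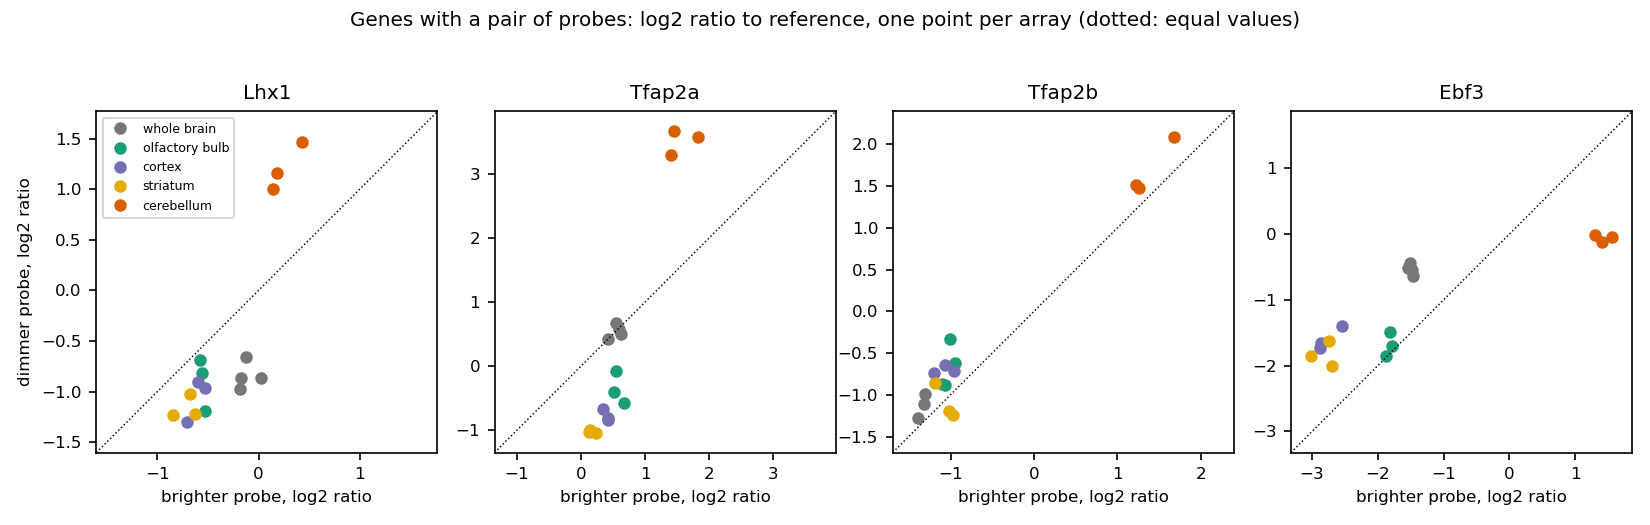
Log2 ratio on the dimmer probe (vertical axis) against the brighter probe (horizontal axis) of the 4 genes with a pair of probes, one point per array, with equal values on the dotted line. Cerebellum arrays (orange) are highest on both probes of every gene. Tfap2b lies near the line. In the cerebellum Lhx1 and Tfap2a lie above it and Ebf3 below it, and on the forebrain arrays these sides are swapped.

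Skor1, a corepressor of homeodomain factors in newborn neurons, read 2.69, 3.37 and 2.64 on the cerebellum arrays and 0.58, 0.63, 0.74 and 0.46 on those of whole brain. The forebrain values were 0.05, 0.10 and 0.31 in olfactory bulb, 0.11, 0.06 and 0.11 in cortex and -0.13, -0.07 and 0.00 in striatum, all close to the reference. Cerebellum replicate 2 was the highest array here, and the remaining cerebellum arrays were still far above all others. The difference from the forebrain was 2.84 ± 0.11 (SE), 7.15-fold (adjusted p = 6.62e-13).

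Pax2, a paired-box factor that marks immature inhibitory interneurons of the cerebellum, read 3.06, 3.06 and 3.39 in the cerebellum, the highest of the genes with a single probe. It read 0.41, -0.03 and -0.03 in olfactory bulb, 0.03, -0.19 and 0.04 in cortex, 0.10, 0.14 and 0.36 in striatum and 0.68, 0.30, 0.41 and 0.40 in whole brain. Forebrain arrays scattered about the reference and overlapped between regions, while sorted-cell signal in the cerebellum was 3050 to 4703 units against 128 to 504 in the forebrain. The difference was 3.07 ± 0.11 (SE), 8.42-fold (adjusted p = 8.49e-14).

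The EBF factors, helix-loop-helix proteins of early neuronal differentiation, divided into a strongly and a weakly changed gene. The brighter Ebf3 probe read 1.40, 1.57 and 1.30 in the cerebellum, -1.81, -1.87 and -1.79 in olfactory bulb, -2.54, -2.88 and -2.87 in cortex, -3.02, -2.74 and -2.69 in striatum and -1.51, -1.48, -1.47 and -1.54 in whole brain. Only the cerebellum exceeded the reference, and olfactory bulb lay between whole brain and the other forebrain regions without overlapping either. Its difference between cerebellum and forebrain was 3.89 ± 0.087 (SE), 14.8-fold (adjusted p = 2.31e-16). The dimmer Ebf3 probe, the one the array names 3110018A08Rik, was also highest in the cerebellum, by 1.64 ± 0.092 (adjusted p = 8.67e-11), but there it only reached the level of the reference, at -0.11, -0.05 and -0.02. The scanner's log ratio put this probe at 2.87. Ebf2, which marks a subset of Purkinje cells, read 0.23, 0.27 and 0.05 in the cerebellum and -0.31 to -0.02 in the forebrain, a small difference of 0.37 ± 0.079 or 1.29-fold (adjusted p = 0.00108). Its sorted signal was low, 164.5 to 472 units in the cerebellum and well above background on 6 of 9 forebrain arrays, and the size of the difference moved with the processing, to 0.57 at an offset of 16, 0.78 under median centring and 1.11 from the scanner's log ratio.

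Ptf1a, the progenitor factor at the head of the lineage, was the member with the smallest difference. It read 0.17, 0.20 and 0.15 in the cerebellum, 0.24, -0.07 and -0.19 in olfactory bulb, -0.06, 0.13 and 0.04 in cortex, -0.17, -0.05 and -0.16 in striatum and 0.52, 0.30, 0.38 and 0.20 in whole brain. Olfactory bulb replicate 1 exceeded the cerebellum arrays, and whole brain was the highest group. The difference between cerebellum and forebrain was 0.21 ± 0.087 (SE; 95% interval 0.025 to 0.39; adjusted p = 0.0647 in limma over all probes). It passed the threshold in 4 alternatives: without olfactory bulb replicate 1 (0.25, adjusted p = 0.0164), without whole brain replicate 1 (0.21, adjusted p = 0.0499), under median centring (0.43, adjusted p = 0.00212) and with the scanner's log ratio (0.41, adjusted p = 0.0336). In the cerebellum the spot gave 205 to 306 units, above background on all 3 arrays.

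Because 8 of the 9 genes moved together, the 250 bases before their annotated starts were searched for motifs of the families the members belong to. RefSeq promoters (GRCm38.p6) covered 7 members with 12 starts; Lhx5 and Ebf2 were not looked at. The motifs were GCCNNNGGC for AP-2, CCCNNGGG for EBF, TAATTA for LIM homeodomain factors and CANNTG for helix-loop-helix factors, each of which reads the same on both strands and was counted with overlaps. The AP-2 letters were in 2 of 12 windows (13.7% of all 32851 promoters of this length), the EBF letters in 3 of 12 (11.8%), TAATTA in 1 of 12 (4.84%) and the E-box letters in 3 of 12 (66.2%). The 12 windows are not separate sequences, since Skor1 and Pax2 have several starts each and the windows of the last 2 Skor1 starts listed share most of their bases. These windows ran from 46.4% to 80% G and C, with a median of 52.4% over all promoters. The AP-2, EBF and TAATTA matches are in capitals below. Shown, 5′ to 3′ along the gene, are windows that hold a match, from a gene of each of the EBF, AP-2 and PAX families. They lie at chr7:137314446-137314695 on the minus strand for Ebf3, chr13:40734921-40735170 on the minus strand for the first Tfap2a start listed and chr19:44755502-44755751 on the plus strand for the second Pax2 start.
Ebf3: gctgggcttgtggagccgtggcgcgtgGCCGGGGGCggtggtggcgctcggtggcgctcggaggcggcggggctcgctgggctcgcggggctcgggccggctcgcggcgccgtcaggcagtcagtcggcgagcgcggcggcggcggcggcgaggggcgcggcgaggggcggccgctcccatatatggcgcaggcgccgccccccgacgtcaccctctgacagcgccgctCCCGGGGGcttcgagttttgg
Tfap2a: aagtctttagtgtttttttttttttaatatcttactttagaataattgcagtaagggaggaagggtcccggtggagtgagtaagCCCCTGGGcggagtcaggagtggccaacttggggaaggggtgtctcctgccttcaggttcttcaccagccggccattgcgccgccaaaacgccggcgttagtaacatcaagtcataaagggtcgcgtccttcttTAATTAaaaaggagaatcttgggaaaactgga
Pax2: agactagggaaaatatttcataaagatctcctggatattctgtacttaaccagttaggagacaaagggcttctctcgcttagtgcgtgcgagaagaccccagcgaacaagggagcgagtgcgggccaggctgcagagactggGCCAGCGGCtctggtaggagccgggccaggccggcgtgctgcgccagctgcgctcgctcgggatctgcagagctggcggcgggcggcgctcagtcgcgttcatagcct
The Ebf3 window holds an AP-2 match 223 to 215 bases before the start and an EBF match 21 to 14 bases before it. The Tfap2a window holds an EBF match 166 to 159 bases before its start and TAATTA 32 to 27 bases before it, and the Pax2 window an AP-2 match 108 to 100 bases before its start. The window of the third Pax2 start, not shown, holds an EBF match 36 to 29 bases before that start. A match is only a run of letters; binding was not measured.

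Set against each forebrain region alone, the cerebellum was higher for 8 of 9 members against olfactory bulb and against cortex, and for 9 of 9 against striatum (background 20.7%, 14.1% and 19.5% of probes called higher). At 2-fold the counts were 5, 6 and 6 of 9, where 1.38%, 0.806% and 0.614% of probes were called. The comparisons share the cerebellum arrays. Lhx5 differed by 4.00, 4.37 and 4.71 from olfactory bulb, cortex and striatum in turn, the brighter Ebf3 probe by 3.24, 4.19 and 4.24, and Pax2 by 3.05, 3.21 and 2.96. Tfap2a on its brighter probe differed from olfactory bulb by 0.98, just under 2-fold, and from striatum by 1.39. Ptf1a passed the test against striatum alone, by 0.30 ± 0.11 (SE; adjusted p = 0.0323), a call lost without any 1 of the cerebellum arrays (adjusted p = 0.0574 to 0.0738), without striatum replicate 1 or 3 (0.0983 and 0.0806) and in the sorted channel alone (0.0737). The Ebf2 call against striatum (0.34) was lost in the sorted channel alone (0.0724) and without striatum replicate 1 (0.0531).

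**Figure D4:**
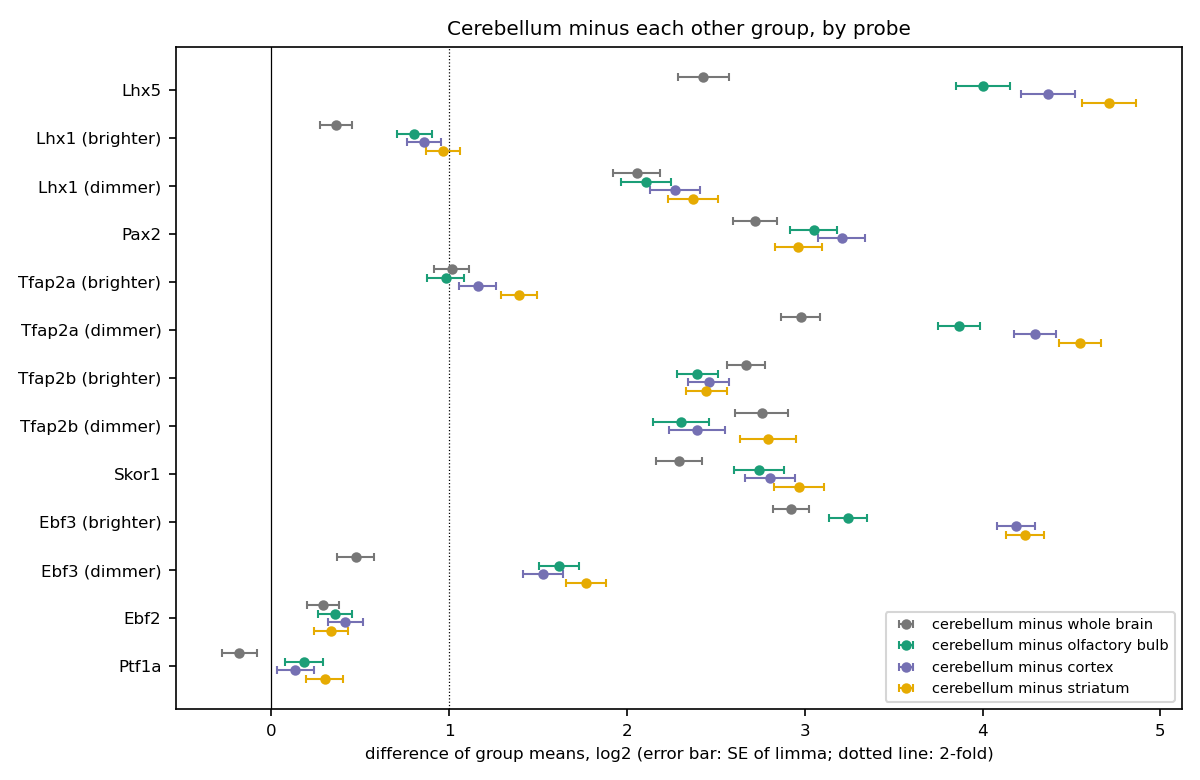
Difference of the cerebellum mean from each other group's mean (horizontal axis, log2) for the 13 probes, with limma's SE as error bars and a dotted line at 2-fold. Lhx5, the dimmer Tfap2a probe and the brighter Ebf3 probe differ by 3.24 or more from each forebrain region, and Ebf2 and Ptf1a stay left of the 2-fold line throughout.

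Among the forebrain regions themselves the members differed by less than 2-fold, Ebf3 by the most. Between olfactory bulb and cortex 1 of 9 genes was called, Ebf3, higher in olfactory bulb by 0.94 ± 0.11 (SE; adjusted p = 8.84e-06), where 8.3% of probes were called higher and 7.36% lower. Its dimmer probe did not share this, at -0.09 ± 0.11 (adjusted p = 0.671). Between olfactory bulb and striatum 3 of 9 were called, all higher in olfactory bulb (13.2% of probes called higher, 12.8% lower). Ebf3 was higher by 0.996 (95% interval 0.774 to 1.22), Lhx5 by 0.71 and Tfap2a by 0.41. Between cortex and striatum 0 of 9 were called by limma, where 7.61% of probes were called higher and 9.85% lower. No member's difference reached 2-fold between any of these regions, though the interval for Ebf3 against striatum ran past it. For Lhx1, Tfap2b, Pax2, Skor1, Ebf2 and Ptf1a the neighbours in the order of the 3 forebrain regions were not called different on the brighter probe. The dimmer Tfap2a probe was higher in olfactory bulb than in cortex by 0.42 and than in striatum by 0.68, and the dimmer Tfap2b probe was higher in olfactory bulb than in striatum by 0.49 (adjusted p = 0.0291).

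Against the unsorted reference, all 9 members were higher in the cerebellum cells (38.8% of probes called higher), 6 of them at least 2-fold (6.81%). The 3 smallest of these calls were less firm. Ptf1a (0.17, adjusted p = 0.0429) was lost in 10 of 27 alternatives. Among them were leaving out any 1 cerebellum array (0.0896 to 0.133), the replicate block (0.0557), an offset of 16 (0.0804) and the scanner's log ratio (0.0574). Ebf2 (0.18) was lost without cerebellum replicate 1 or 2 (0.109 and 0.146) and with only the groups compared (0.0575). Lhx1 (0.25) was lost without cerebellum replicate 2 (0.0655). In forebrain cells only Tfap2a was higher, in each of the 3 regions, and Lhx5, Ebf3, Tfap2b and Lhx1 were lower in all 3, with Ebf2 lower in olfactory bulb and cortex. Pax2 in striatum and Skor1 in olfactory bulb were each called higher in 4 of 27 alternatives. Median centring also called Pax2 higher in olfactory bulb (0.38) and Skor1 higher in cortex (0.31). Ptf1a was called lower in striatum in 2 of 27. The Lhx1 call in olfactory bulb was lost under median centring (-0.099, adjusted p = 0.269). The Ebf2 call in olfactory bulb was lost without its replicate 2 (-0.11, adjusted p = 0.25) or 3 (0.0546) and with only the groups compared (0.0629), and in striatum Ebf2 (-0.15, adjusted p = 0.0545) was called in 11 alternatives. In olfactory bulb, cortex and striatum 34.6%, 34.8% and 34.1% of all probes were called higher and 32.8%, 33.6% and 33.3% lower. The Tfap2a call rests on its brighter probe: the dimmer probe was lower than the reference in every forebrain region, at -0.35, -0.77 and -1.03. In striatum the brighter probe's call (0.17, adjusted p = 0.0484) was lost in 12 of 27 alternatives and reversed in 1. It was lost when any striatum array was left out, with an adjusted p of 0.212 without replicate 3, and also without any cortex array. In whole-brain cells Skor1, Tfap2a, Pax2 and Ptf1a were higher, by 0.60, 0.55, 0.45 and 0.35, and Ebf3 and Tfap2b were lower, at -1.50 and -1.28, with 41.2% of probes called higher and 38.1% lower. Cerebellum exceeded whole brain for 8 of 9 members (32.2% of probes), 6 of them at least 2-fold (6.88%), from 2.92 for the brighter Ebf3 probe to 0.29 for Ebf2, and Ptf1a lay at -0.18 ± 0.099 (adjusted p = 0.136). The Lhx1 call there (0.37 on the brighter probe) was lost under median centring (0.013, adjusted p = 0.927), with the scanner's log ratio (0.23, 0.0898) and in the sorted channel alone (0.24, 0.248).

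Cerebellum replicate 2, the array with the highest signal, gave the highest ratio among the 3 cerebellum arrays on 10 of the 13 probes, and replicate 3 on the other 3. The same count was not made over all probes, so whether replicate 2 leads across the array is not known. The range over the 3 cerebellum arrays ran from 0.048 for Ptf1a to 0.73 for Skor1 on the log2 scale. Leaving out any array kept the count of members called higher between 8 and 9 and the 2-fold count at 6. Over all 28 alternatives the count called higher was again 8 to 9, but the 2-fold count ran from 5 to 8.

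Across the 12 regional arrays the member profiles ran in parallel. Between genes other than Ptf1a, Pearson's r of log2 ratios lay between 0.833, for Tfap2a with Ebf2, and 0.996, for Tfap2b with Skor1; r for Ptf1a ran from 0.525 to 0.674. These are descriptions over 12 arrays in which the cerebellum stands apart from the other regions and which share a reference. Among 4156 probes with a range of at least 1, the genes most like Lhx5 were Asic4 (r = 0.996), Kcnj6 and Mab21l1, those most like Pax2 were Nxn (r = 0.994), Neurod2 and Rassf4, and those most like Tfap2b were Cnpy1 (r = 0.996), Megf11 and Gata3. Cnpy1 and Megf11 also led for Skor1, with Cartpt as the next. Sema6a (r = 0.995), Asic4 and Mab21l1 led for Ebf3. For Lhx1 they were Olfr610 (r = 0.984), Btbd11 and Sema6a, and for Tfap2a Btbd11 (r = 0.993), Olfr610 and Olfr979. Ebf2 was most like Rasl11b (r = 0.967), Zbtb46 and Ptchd1, and Ptf1a reached no more than 0.851, with Tedc1, ahead of Esrrg and Rasgrp2.

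The members' relatives within the same gene families did not share the shift as a group. Of 19 relatives tested, 7 were higher in the cerebellum than in the forebrain and 4 lower, with a median of 0.13 (21.3% and 19.2% of all probes were called higher and lower). Pax3, a paired-box factor of dorsal neural progenitors, rose by 2.04 ± 0.12 (SE; adjusted p = 1.46e-10), and Ebf1 by 1.21 ± 0.16 (adjusted p = 1.69e-05) with 1 cerebellum array left out because its spot was marked as an outlier. Pax7 rose by 0.75, Lhx9 by 0.43 and Pax8 by 0.39. Isl1 and Lhx6, LIM homeodomain factors of striatal neurons and of cortical interneurons, fell by 0.83 and 0.78. The remaining AP-2 genes did not pass: Tfap2c, Tfap2d and Tfap2e lay at -0.01, -0.13 and 0.21. Skor2 was not analysed here.

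Other genes tied to cerebellar GABAergic development and function gave a mixed picture, with 12 of 26 tested higher, 5 lower and a median of 0.22. Of all probes, 21.3% were called higher and 19.2% lower in this comparison. Bhlhe22 rose by 1.68 ± 0.11 (SE; adjusted p = 5.03e-10), the hindbrain patterning genes En2 and En1 by 1.28 and 0.48, Neurog2 by 1.03 and Gsx1, a ventricular zone factor, by 0.98. Slc6a5, the glycine transporter of inhibitory interneurons, is among the genes counted as higher, but was well above background in sorted cells on the 3 cerebellum arrays alone, so no size is given for its difference. Rbpjl, the Rbpj paralogue that can join the Ptf1a complex, rose by 0.33. Genes of maturing Purkinje cells did not rise together: Foxp2 fell by 1.66, Calb1, which encodes calbindin, fell by 0.83 and Pcp4 fell by 0.27, whereas Car8 rose by 0.37 and Pcp2 lay at 0.18 ± 0.081 (adjusted p = 0.0826). Npy fell by 1.22, with 1 olfactory bulb array left out of its fit. Forebrain GABAergic factors ran the other way, with 8 of 9 lower and 1 higher and a median of -1.99: Dlx1 fell by 2.91, Sp8 fell by 2.27, Dlx5 fell by 2.09, Dlx2 fell by 2.05 and Dlx6 fell by 1.99, and Gsx2 rose by 0.26. Against the total brain reference, though, 5 of these 9 were called higher in the cerebellum cells and 2 lower, with a median of 0.522. Of all 39226 probes, 15238 were called higher and 14280 lower there.

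Genes of the cerebellar granule cell lineage, which is glutamatergic and comes from the rhombic lip, moved in the same direction as the members. Of 14 tested, 10 were higher in the cerebellum and 1, Meis1, lower, with a median of 0.99 (21.3% of all probes called higher, 19.2% lower). Zic2 rose by 2.71, Mab21l1 by 2.63, Zic1 by 2.27, Nhlh1 by 1.68, Neurod1 by 1.49, Cbln1 by 1.45 and Barhl1 by 1.22, and Atoh1, the rhombic lip determinant, by 0.69. Zic and Mab21l1 transcripts are not limited to granule cells, and Gabra6, a gene of mature granule cells, lay at -0.02 and was well above background on 1 of 3 cerebellum arrays. The summed sorted-channel signal of the list was 24600 to 26500 units on the cerebellum arrays against 10900 to 16300 over the forebrain arrays. Of 6 glutamatergic neuron genes 2 rose as well, Neurod2 by 2.79 and Neurod6 by 1.13, and Slc17a7 fell by 0.51; the list summed to 3020 to 3220 units in the cerebellum and 1250 to 1800 in the forebrain. The part of such cells in the members' differences was not tested.

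Markers of other cells shifted less in size. The shares over all probes were 21.3% called higher and 19.2% called lower. The Hox, astrocyte and radial glia, microglial and oligodendrocyte lists were called higher more often than that. Among Hox genes of the brainstem 6 of 11 were higher and 1 lower, none by 2-fold, with Hoxa5 at 0.66 the highest of them, and the list summed to 2390 to 2510 units in the cerebellum and 1860 to 2490 in the forebrain. Astrocyte and radial glia genes were higher for 5 of 11 and lower for 1 (9820 to 11200 units against 7130 to 11600), and microglial genes higher for 5 of 8 (3820 to 3980 against 2070 to 3630). Oligodendrocyte lineage genes were higher for 4 of 7, led by Pdgfra at 1.09 and Mbp at 0.82 (4200 to 4580 units against 1840 to 4140). Endothelial and mural genes were higher for 0 of 7 and lower for 2 in limma (1800 to 1870 against 1340 to 3470), and meningeal and choroid plexus genes higher for 1 of 6 and lower for 1, Ttr, which fell by 1.94 (4190 to 4530 against 3520 to 6360). Among genes of GABA identity, Slc32a1 rose by 0.91 with 1 cortex array left out, Gad2 fell by 0.93 and Gad1 lay at 0.00. The part of these lists in the members' differences was likewise not tested.

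**Figure D5:**
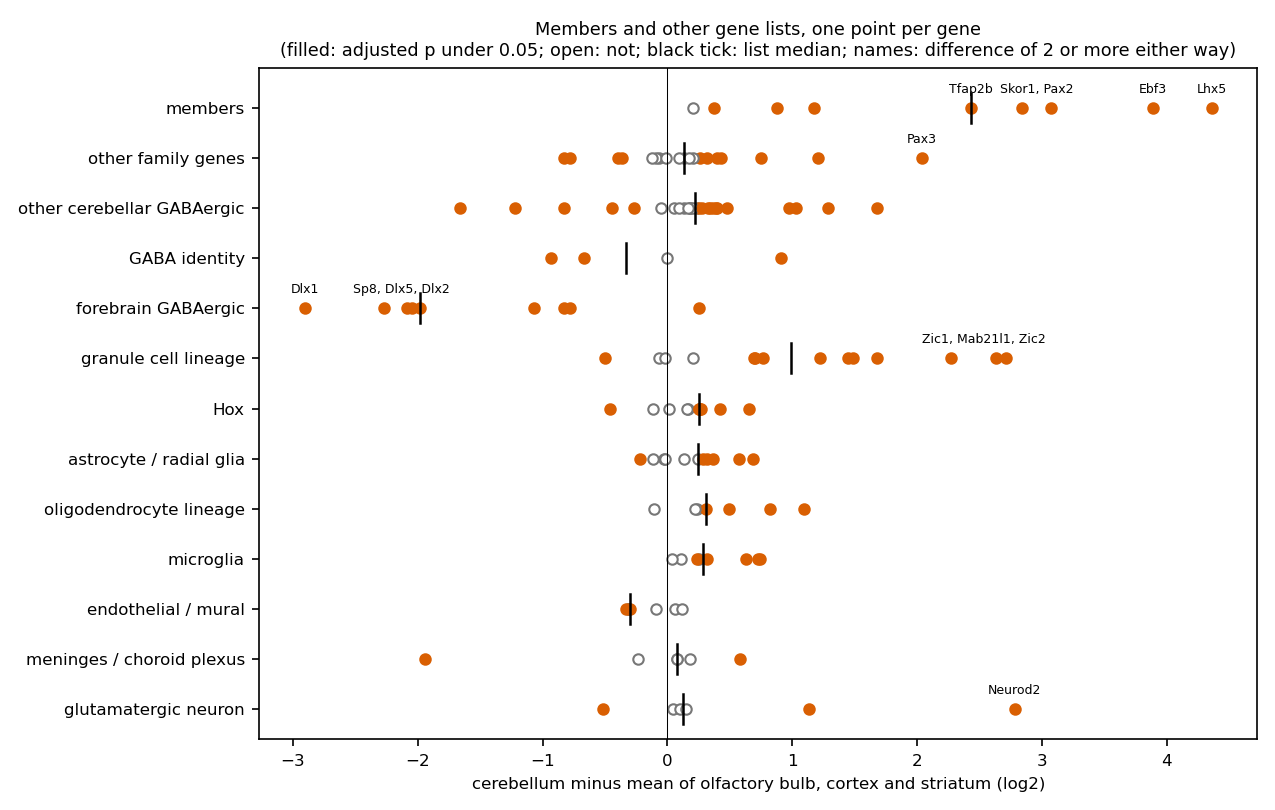
Difference between cerebellum and the mean of the forebrain regions (horizontal axis, log2) for the members and for each other gene list (rows), one point per gene from its brighter probe, filled where the adjusted p is under 0.05, with a black tick at the list's median. The members' median is 2.43 and the granule cell lineage's 0.99, while forebrain GABAergic factors lie at -1.99.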

How the data were processed

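The deposited files are the scanner output of 16 arrays with a pair of colours each; spot and background intensity values are those of Agilent Feature Extraction 8.1.1.1, per the submitters' processing notes and the file headers. The authors' deposited log10 ratio (Cy5 over Cy3, background-subtracted and dye-normalized by the scanner software, per the file headers) served as an alternative, and the deposited value table equals it within 0.005. Amplification was by global PCR and 250 ng of cDNA were labelled, per the labels' protocols; amplification and loess can compress or shift ratios of dim spots.

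Mean spot intensity and median local background were corrected by normexp (offset 50), normalized by loess within arrays and averaged per probe, with control and outlier-marked spots left out. Of 41173 probes, 39226 were kept, those well above background on 3 or more arrays for sorted cells, or on 8 or more for the reference. Group means over all 16 arrays were fitted with limma 3.58.1 in R 4.3.3 (lmFit, eBayes, Benjamini-Hochberg); adjusted p under 0.05 was called. The fit was tested on simulated data. The labels do not say whether regions share or pool animals, and p-values measure only the spread between these samples. The number of arrays limits the precision.

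Probe names were updated through RefSeq for 21444 probes by accession, 5431 by symbol and 4636 by synonym, and 9662 kept the array's name. All member probes are named, and in each other list up to 8 called genes with the largest difference, plus label checks and the 3 genes most like each member over 12 regional arrays; Slc6a5, Rbpjl, Pcp2, Pcp4, Car8, Tfap2c, Tfap2d, Tfap2e, Atoh1 and Gabra6 were added after their values were seen. Some genes of these lists are not reported here. The members and lists were chosen with earlier results of these data known. Alternatives were other background corrections and normalizations, filters, probe rules, the sorted channel alone, fewer samples in the fit, a replicate block and leaving out each array.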

Additional observations from a re-analysis of the deposited data

Results flagged for a closer look

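For 8 probes of 6 genes the sorted cells of the cerebellum were called higher than the reference and those of 1 or more forebrain regions lower, and the difference between cerebellum and the forebrain mean was itself called by limma. Each single call was common: 38.8% of all probes were higher than the reference in the cerebellum. In olfactory bulb, cortex, striatum and whole brain 32.8%, 33.6%, 33.3% and 38.1% were lower. The share of all probes that met the calls jointly was not counted, so whether the members stand out by this rule is not known. The differences between cerebellum and the forebrain mean were 4.36 for Lhx5, 4.24 for the dimmer Tfap2a probe, 3.89 for the brighter Ebf3 probe, 2.43 and 2.50 for the brighter and dimmer Tfap2b probes, 0.88 and 2.25 for the brighter and dimmer Lhx1 probes and 0.37 for Ebf2. In the same way cerebellum was called higher and whole brain lower than the reference for the dimmer Lhx1 probe (difference 2.06), the brighter and dimmer Tfap2b probes (2.67 and 2.76) and the brighter Ebf3 probe (2.92), where scan day and group cannot be told apart. Ebf2 had the same signs on every cerebellum and whole-brain array, but whole brain was not called lower than the reference there (-0.11, adjusted p = 0.0994).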

How the results depend on the processing

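Of 3495 values of member probes under the alternatives, 3412 kept their direction and side of the threshold, 43 lost and 37 gained a call and 3 reversed; unless a cause is given, it was not tested. For Lhx1, brighter probe, whole brain against reference, median centring gave 0.43 in place of -0.11. For Tfap2a, brighter probe, cortex against reference and Tfap2a, brighter probe, striatum against reference, the mean of probes per gene gave -0.19 and -0.43 in place of 0.40 and 0.17, since the dimmer probe lay below the reference. In the sorted channel alone the count of probes called was 8678 in place of 14604 for cerebellum against striatum and 9303 in place of 6142 for olfactory bulb against cortex. With the mean of probes per gene, which tests fewer features, the counts were 6907 for cerebellum against cortex, 3914 for olfactory bulb against cortex, 6742 for olfactory bulb against striatum and 4388 for cortex against striatum. Leaving out 1 array gave 3672 to 7025 for olfactory bulb against cortex, lowest without olfactory bulb replicate 1 and also under 4100 without cortex replicate 1 or 3, and 3566 to 7993 for cortex against striatum, lowest without cortex replicate 3 and next without cortex replicate 1 or striatum replicate 1 or 2 (3639, 3859 and 4115). Median centring moved the share of calls that were higher from 58.7% to 46.9% for cerebellum against whole brain, from 53% to 67.6% for olfactory bulb against cortex and from 50.9% to 62.8% for olfactory bulb against striatum, and the sorted channel alone from 52.4% to 41.4% for cerebellum against striatum.

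With the replicate block, cerebellum against the mean of olfactory bulb, cortex and striatum gave 16938 probes and 8 members called higher, 6 of them at least 2-fold. The labels do not say whether the numbers pair the regional arrays, and the deviations from group means cannot decide it with so few arrays. Those of same-numbered arrays correlated at a median r of 0.027 (-0.12 to 0.246) over 18 pairs. Those of other arrays correlated at -0.019 (-0.243 to 0.241) over 36. The block changed 4 member calls, all against the reference. A block for scan day could not be fitted, because it coincides with the whole-brain group.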
